A study of Mus musculus with 26 samples.

Results

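Parkinson's disease genes other than *Lrrk2* were followed in ribosome footprints and total RNA of the mouse striatum. The members were 8 genes named by symbol, and a transcript was taken where one of the 3 deposited tables lists that symbol. Of the 8 genes, 6 were listed, each with a single transcript in all 3 tables: *Pink1*, *Fbxo7*, *Vps35*, *Atp13a2*, *Synj1* and *Dnajc6*. *Park2* and *Park7* were not analysed here. The 2 tables of transgenic lines list 8576 transcripts each, and the LRRK2 KO table lists 9561.

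The study asked how LRRK2 and its kinase activity alter translation in the caudate putamen. Ribosome footprinting sequences the mRNA fragments that ribosomes protect from nuclease, RNA-Seq measured total RNA, and translational efficiency (TE) is the footprinting value divided by the RNA-Seq value. Each library came from the pooled tissue of 3 mice of mixed sex. The GS LRRK2 TG mice carried G2019S LRRK2, a form with raised kinase activity, and the GS/DA LRRK2 TG mice carried G2019S/D1994A LRRK2, in which the second change removes that activity. Both transgenes were of the Tet-off kind, were driven by CaMKII-tTA and therefore in forebrain neurons rather than in all cells, and came from high copy number lines; expression began once doxycycline was withdrawn from the food. Their controls were non-transgenic (non-TG control) mice, and LRRK2 KO mice, which lack the gene product, were set against WT mice. All groups were C57BL/6 mice of 3 months with no other treatment named in the labels. The labels give 3 footprinting and 3 RNA-Seq samples for the non-TG control, 2 and 2 for either transgenic line, and 3 and 2 for WT and for LRRK2 KO striatum.

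As background, *Pink1*, parkin (*Park2*) and *Fbxo7* act in the removal of damaged mitochondria, in which the kinase PINK1 recruits and activates the ubiquitin ligase parkin on the outer mitochondrial membrane. *Vps35* and *Atp13a2* serve endosomes and lysosomes, and *Synj1* and *Dnajc6* strip phosphoinositides and clathrin from vesicles that nerve terminals take up again. Inherited changes in each of these genes cause or predispose to forms of parkinsonism, and the striatum is the main target of the dopamine axons that degenerate in the disease.

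The tables hold the authors' mean of normalized reads in the CDS for each group and assay. Reads of 2 single libraries were recovered from 10 of the 12 means, for 98.1% to 99.9% of the transcripts and for all 6 members. The libraries are called shallower and deeper by their size factor, and values of a group are given in that order. Recovered totals were 7463190 to 18360782 reads in the footprinting and 8696465 to 14546606 in the RNA-Seq libraries of the transgenic tables. In the LRRK2 KO table they were 2862310 to 6051183 and 3132940 to 10812639, so the members' footprints are measured there with fewer reads in most libraries. The 2 non-TG control means of the GS LRRK2 TG table could not be resolved, so changes with GS LRRK2 TG are ratios of the authors' means, with no spread for the control and no test. Levels are comparable within a table only, because each table was normalized by itself.

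*Lrrk2* itself was read first as a check of the genotypes. Its footprints were 690.1 and 400.3 normalized reads in the WT libraries and 149.7 and 102 in the LRRK2 KO libraries. In the GS/DA LRRK2 TG table they were 1224 and 1445 in the non-TG control and 4766 and 7267 with the transgene, and in the GS LRRK2 TG libraries 7052 and 3320.5 against an authors' control mean of 2524. The recovered footprinting libraries of LRRK2 KO and GS/DA LRRK2 TG thus lay apart from their controls on the side that the label gives. Those of GS LRRK2 TG lay above a control mean whose single libraries were not seen. *Lrrk2* RNA-Seq went with the label in LRRK2 KO, with 733 and 1278 in WT and 270.0 and 423 in LRRK2 KO. It did not in the transgenic lines: the libraries labelled GS/DA LRRK2 TG held 5038 and 404 against 560.2 and 5233 in the non-TG control, and the authors' mean labelled GS LRRK2 TG was 1882 against 2105. For *Lrrk2* the RNA-Seq libraries of one group in the GS/DA LRRK2 TG table thus lay farther apart than the groups. In pairs of control and genotype libraries, matched from the same values by the difference they share, its log2 changes there were -0.46 and -0.05. The check rests on *Lrrk2* alone, and why its RNA-Seq did not go with the label was not tested. As a precaution, no direction is drawn for a member from RNA-Seq of the transgenic lines. Per the paper's methods, part of the lysate went to a Western blot to check that the transgene was expressed.

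Markers of the dissected tissue were present. All 11 listed markers of striatal projection neurons had a row in every table, led by *Ppp1r1b*, while 5 of 8 markers of midbrain dopamine neurons (*Th*, *Slc6a3*, *Slc18a2*, *En1* and *Pitx3*) had none. In such bulk tissue, fewer cells of a type and less RNA per cell cannot be told apart.

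None of the 6 members passed the test in any comparison that could be fitted. With limma on the log2 of normalized reads plus 10, the Benjamini-Hochberg adjusted p over the table was under 0.05 for 0 of 6 members in footprinting, RNA-Seq and TE of GS/DA LRRK2 TG and of LRRK2 KO, and for 0% of the transcripts tested in each of these 6 fits. At an unadjusted p under 0.05, limma counted 0 of 6 members in each of them, and among all transcripts 152, 0 and 0 for GS/DA LRRK2 TG and 16, 7 and 4 for LRRK2 KO, in the same order of assays. With the libraries of control and genotype matched by the difference they share and entered as a block, limma called 0.31% of the transcripts in GS/DA LRRK2 TG footprinting, 0.157% in LRRK2 KO footprinting and 0.115% in LRRK2 KO RNA-Seq, and 0% in the other 3 fits, again with 0 of 6 members in each. At an unadjusted p under 0.05 the blocked limma fits counted 2 of 6 members, *Synj1* and *Dnajc6*, in GS/DA LRRK2 TG footprinting, beside 1183 of the 8400 transcripts tested, and 0 of 6 in the other 5. With the opposite matching it was 0 of 6 members and 72 transcripts there, and the calls went from 26 to 6 in GS/DA LRRK2 TG footprinting, from 15 to 0 in LRRK2 KO footprinting and from 11 to 0 in LRRK2 KO RNA-Seq. The matching was taken from the same values that were then tested, so these p-values hold less spread than a pairing known beforehand would give. *Lrrk2* was among these calls, with a log2 change of 2.14 (95% limits 1.90 to 2.38) and an adjusted p of 0.00161 in GS/DA LRRK2 TG footprinting. Without the block its adjusted p was 0.877 there and 1 in LRRK2 KO footprinting, so the fits without it did not call the altered gene itself. On simulated data, fits without the block called none of the changed transcripts in TE or in LRRK2 KO footprinting, so the 0 of 6 there says little about the members. A p that misses the threshold does not show that a member did not change, and limits of the difference are given with many of the values that follow.

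The libraries of control and genotype overlapped for all 6 members in both assays of both comparisons. In GS/DA LRRK2 TG footprinting, both genotype libraries lay above both control libraries for 12% of all transcripts and below them for 12.2%. The same shares were 1.78% and 1.6% in RNA-Seq labelled GS/DA LRRK2 TG, 6.22% and 6.4% in LRRK2 KO footprinting, and 7.02% and 7.01% in LRRK2 KO RNA-Seq. The members' count was 0 of 6 in each of these 8 cases.

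**Figure D1:**
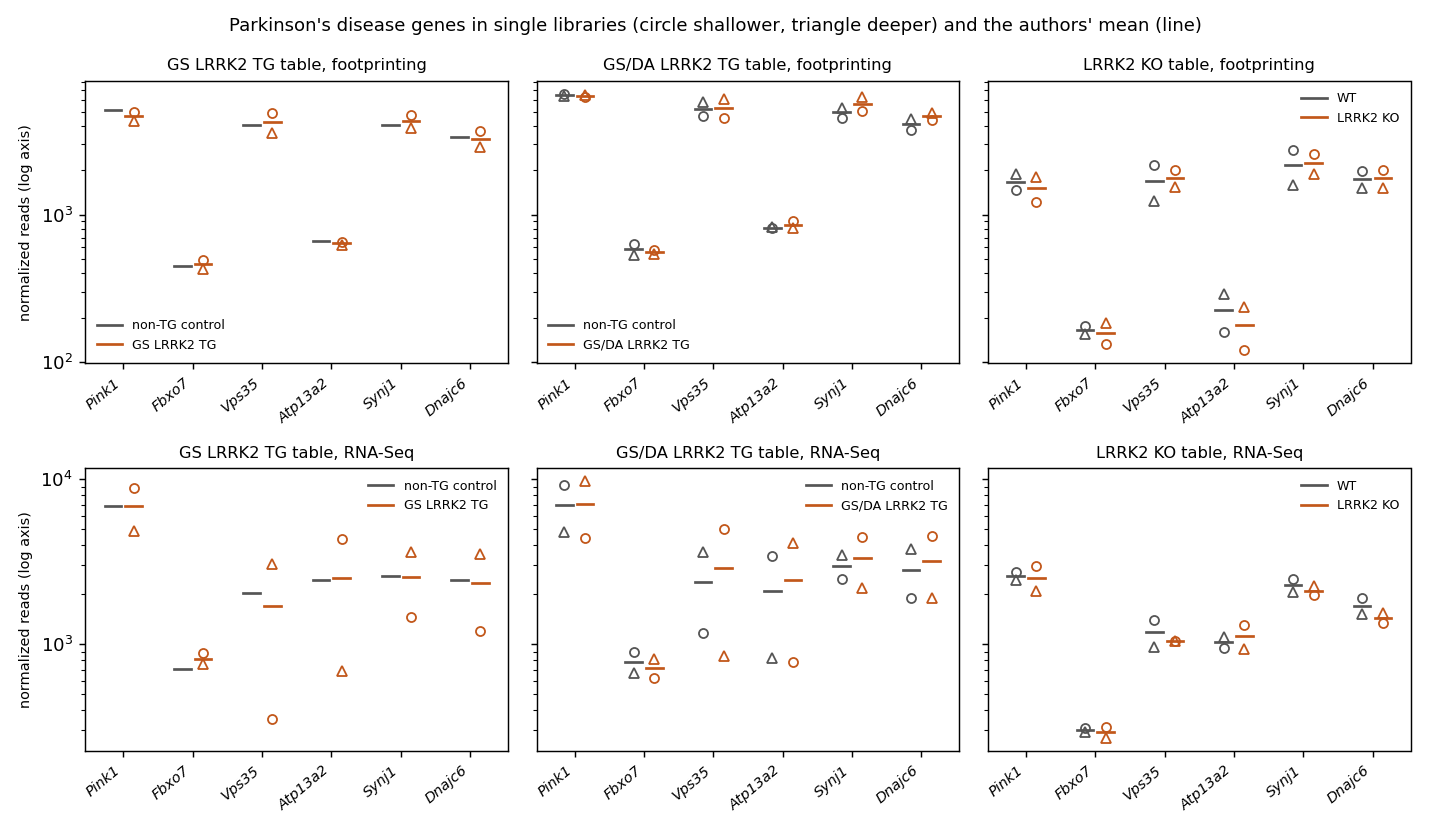
Normalized reads (log axis) of the 6 listed members in single recovered libraries (circle, shallower; triangle, deeper) and the authors' mean of each group (line), for footprinting (top) and RNA-Seq (bottom) in the 3 tables. Control (grey) and genotype (orange) libraries overlap for every member in the GS/DA LRRK2 TG and LRRK2 KO tables, and RNA-Seq libraries of one group lie far apart in the transgenic tables for *Vps35* and *Atp13a2*.

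*Pink1*, the mitochondrial kinase, had the most footprints per kb of the members. Its footprints were 6602 and 6386 normalized reads in the non-TG control and 6299 and 6481 in GS/DA LRRK2 TG. In the LRRK2 KO table they were 1476 and 1878 in WT and 1214 and 1806 in LRRK2 KO. The transgenic libraries lay within or just below the control range, and in the LRRK2 KO table the deeper library was the higher one in either group. The log2 change of *Pink1* footprints was -0.02 (95% limits -0.30 to 0.26) in GS/DA LRRK2 TG and -0.17 (95% limits -0.98 to 0.64) in LRRK2 KO by limma. In the GS LRRK2 TG libraries *Pink1* footprints were 4996 and 4288, both under the authors' control mean of 5164. The ratio of means was -0.15 on the log2 scale, lower than in all but 10.6% of the transcripts. With the trend over GC content of the CDS removed, the ratio was -0.07. *Pink1* RNA-Seq was 2742 and 2429 in WT and 2959.6 and 2088 in LRRK2 KO, where the genotype libraries enclosed the control range. The log2 ratio of its RNA-Seq means was -0.01 in the libraries labelled GS LRRK2 TG and 0.01 in those labelled GS/DA LRRK2 TG.

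*Fbxo7*, which encodes the substrate-binding F-box subunit of an SCF ubiquitin ligase, was the lowest or next to lowest member per kb. Its footprints were 633 and 533 normalized reads in the non-TG control and 575 and 541 in GS/DA LRRK2 TG. They were 175 and 155 in WT and 133 and 184 in LRRK2 KO, from as few as 95 reads in a library. In GS/DA LRRK2 TG the genotype values fell inside the control range, and in LRRK2 KO they enclosed it. The log2 change was -0.06 (95% limits -0.39 to 0.28) and -0.07 (95% limits -0.75 to 0.61) by limma in that order. In the GS LRRK2 TG libraries *Fbxo7* footprints were 491 and 431 around a control mean of 448, while RNA-Seq labelled GS LRRK2 TG was 878 and 753 against a control mean of 707, a log2 ratio of means of 0.21. *Fbxo7* RNA-Seq was 309 and 294 in WT and 312 and 270.3 in LRRK2 KO, the closest agreement between libraries among the members in that table, with a pooled SD of 0.11 on the log2 scale.

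*Vps35*, the core subunit of the retromer that returns cargo from endosomes, differed more between libraries in RNA-Seq of the transgenic tables than in footprints. Its footprints were 4653 and 5842 normalized reads in the non-TG control and 4494 and 6135 in GS/DA LRRK2 TG. They were 2176 and 1234 in WT and 2018 and 1541 in LRRK2 KO. The deeper library was the higher one in both groups of the first table and the lower one in both groups of the second, and the groups overlapped in both. The log2 change was 0.01 (95% limits -0.48 to 0.50) in GS/DA LRRK2 TG and 0.11 (95% limits -0.88 to 1.09) in LRRK2 KO by limma. *Vps35* RNA-Seq was 1165 and 3615 in the non-TG control and 4978 and 844 in the libraries labelled GS/DA LRRK2 TG. Within the GS LRRK2 TG label the RNA-Seq libraries held 351 and 3072, and footprinting 4915 and 3573. In RNA-Seq of the GS/DA LRRK2 TG table the libraries of one group lay farther apart than the group means, and the limits of the GS/DA LRRK2 TG difference in RNA-Seq ran from -3.24 to 3.25. With the library block, matched from the same values, they ran from -0.51 to 0.51. In the LRRK2 KO table *Vps35* RNA-Seq was 1407 and 959 in WT and 1043 and 1050.0 in LRRK2 KO, where the genotype libraries lay inside the control range.

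*Atp13a2*, a lysosomal P5-type ATPase that exports polyamines, was the only member past the TE cutoff in any of the 3 comparisons. Its footprints in the LRRK2 KO table were 161 and 291 normalized reads in WT and 120.3 and 238 in LRRK2 KO, from 86 to 374 reads a library. Its RNA-Seq there was 947 and 1101 in WT and 1308 and 935 in LRRK2 KO. The deeper footprinting library was the higher one in both groups, and the groups overlapped in both assays. The log2 ratio of the authors' means was -0.34 for footprints and 0.13 for RNA-Seq, a TE difference of -0.47. Its *z* over all transcripts was -1.79, past the cutoff of -1.5 by which the study defined TE down. By this rule 1 of 6 members had TE down and 0 of 6 TE up in LRRK2 KO, against 6.02% and 6.23% of all transcripts. The rule holds no spread between libraries: limma gave a TE difference of -0.45 (95% limits -1.81 to 0.91) with an adjusted p of 1, and -0.45 (95% limits -1.04 to 0.13) with the block, with an adjusted p of 1. In pairs of libraries matched from these same values, footprints were lower in both, by log2 changes of -0.39 and -0.28. RNA-Seq differed by 0.46 in one pair and -0.23 in the other. Without the deeper WT footprinting library the TE difference was 0.02, and it was -0.06 without the shallower LRRK2 KO one and -0.21 without the shallower LRRK2 KO RNA-Seq library. It was -0.83 without the shallower WT and -1.04 without the deeper LRRK2 KO footprinting library, so the call depends on single libraries.

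In the GS/DA LRRK2 TG table *Atp13a2* footprints had the smallest pooled SD between libraries of the members after *Pink1*, 0.08 on the log2 scale. They were 814 and 823 normalized reads in the non-TG control and 905 and 811 in GS/DA LRRK2 TG, a log2 change of 0.06 (95% limits -0.23 to 0.36) by limma. In the GS LRRK2 TG libraries they were 657 and 619 against a control mean of 665. Its RNA-Seq, in contrast, was 3398 and 823 in the non-TG control, 783 and 4103 in the libraries labelled GS/DA LRRK2 TG and 4313 and 686 in those labelled GS LRRK2 TG. In each group 1 RNA-Seq library was low and the other high, in the reverse order of *Vps35*.

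*Synj1*, the phosphoinositide phosphatase synaptojanin, and *Dnajc6*, the neuronal auxilin that recruits Hsc70 to uncoat clathrin, had the highest footprinting ratios of the members in GS/DA LRRK2 TG. *Synj1* footprints were 4551 and 5325 normalized reads in the non-TG control and 5012 and 6240.5 in GS/DA LRRK2 TG. *Dnajc6* footprints were 3763 and 4435 and 4389.5 and 4929.6. For either gene the deeper GS/DA LRRK2 TG library was the highest of the 4 and the shallower one lay inside the control range. The log2 change was 0.18 (95% limits -0.21 to 0.58) for *Synj1* and 0.19 (95% limits -0.16 to 0.53) for *Dnajc6*, with an adjusted p of 1 by limma for both. The ratios of the authors' means, 0.19 and 0.18, stood above those of 92.8% and 92.6% of the transcripts. With 1 library left out, the ratio ran from 0.02 to 0.34 for *Synj1* and from 0.07 to 0.31 for *Dnajc6*. In pairs of libraries matched from these same values, both pairs were higher with the transgene. The log2 changes were 0.14 and 0.23 for *Synj1* and 0.22 and 0.15 for *Dnajc6*. With the library block of the same matching, limma gave limits of 0.01 to 0.36 and 0.02 to 0.36, the adjusted p 0.333 and 0.322. That fit had 1183 of 8400 transcripts at an unadjusted p under 0.05. With the opposite matching, the lowest unadjusted limma p of any member was 0.423. The pairs and the block thus add no independent evidence of a change.

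Markers of cortical projection neurons were higher in the same libraries. Their summed footprints, from 4 of 6 markers with a row, were 1243 and 1792 normalized reads in the non-TG control and 2765 and 4335 in GS/DA LRRK2 TG, and *Slc17a7* was the most abundant of them in every group. Their median log2 change in footprints was 1.18, and with the library block, which was matched from these values, limma called *Slc17a7*, *Tbr1* and *Neurod6*, at log2 changes of 1.27, 1.39 and 1.02 with adjusted p of 0.00255, 0.00161 and 0.017. With the opposite matching *Slc17a7* and *Tbr1* were called, at adjusted p of 0.0335 and 0.0283, and *Neurod6* was not. In RNA-Seq labelled GS/DA LRRK2 TG the median change of the cortical markers was 1.10 beside 1.18 in footprints. Their median change in footprints was -0.23 with GS LRRK2 TG and 0.00 with LRRK2 KO. The summed footprints of the 2 GS LRRK2 TG libraries lay far apart, at 2483 and 575. The markers of striatal projection neurons had a median change of -0.22 in footprints and -0.12 in RNA-Seq of GS/DA LRRK2 TG. In footprints it was -0.09 with GS LRRK2 TG and 0.10 with LRRK2 KO. The part of such cells in the values of *Synj1* and *Dnajc6* was not tested.

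In the LRRK2 KO table *Synj1* footprints were 2729 and 1598 normalized reads in WT and 2589 and 1874 in LRRK2 KO, and *Dnajc6* footprints 1976 and 1508 and 2004 and 1523. Here the shallower library was the higher one in every group, and the LRRK2 KO libraries of *Synj1* lay inside the WT range while those of *Dnajc6* lay just above the WT libraries of the same depth rank. The log2 change was 0.08 (95% limits -0.91 to 1.06) for *Synj1* and 0.02 (95% limits -0.72 to 0.75) for *Dnajc6* by limma. *Synj1* RNA-Seq was 2468 and 2079 in WT and 1972 and 2239.9 in LRRK2 KO. *Dnajc6* RNA-Seq was 1895 and 1529 in WT and 1334 and 1543 in LRRK2 KO, where 1 genotype library lay below both WT libraries and the other just above the lower of them. The RNA-Seq change of *Dnajc6* was -0.24 (95% limits -0.92 to 0.43) and its TE difference 0.26 (95% limits -0.62 to 1.14) by limma. The sign of both was the same with any 1 library left out, but the size was not. From ratios of means it then ran from -0.40 to -0.09 for RNA-Seq and from 0.06 to 0.48 for TE. In the GS LRRK2 TG libraries *Synj1* footprints were 4735 and 3886 around a control mean of 4042, and *Dnajc6* footprints 3669 and 2883 around 3365. RNA-Seq of *Synj1* was 2489 and 3482 in the non-TG control, 4473 and 2194 in the libraries labelled GS/DA LRRK2 TG and 1453 and 3639 in those labelled GS LRRK2 TG. For *Dnajc6* it was 1908 and 3750.4, 4496 and 1904 and 1192 and 3498 in the same order, again with a low and a high library in each group.

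Set side by side, the TE differences of the members in GS/DA LRRK2 TG and LRRK2 KO were each smaller than the member's pooled SD between libraries, which ran from 0.27 to 1.58 on the log2 scale. With GS LRRK2 TG they were -0.14 for *Pink1*, -0.17 for *Fbxo7*, 0.31 for *Vps35*, -0.10 for *Atp13a2*, 0.11 for *Synj1* and 0.01 for *Dnajc6*, on the log2 scale from the authors' means. With GS/DA LRRK2 TG they were -0.03, 0.06, -0.27, -0.14, 0.03 and 0.01 in the same order, and with LRRK2 KO -0.12, -0.01, 0.24, -0.47, 0.16 and 0.27. By the *z* rule 0 of 6 members had TE up and 0 of 6 TE down with GS LRRK2 TG, against 8.01% and 3.91% of all transcripts. The counts were also 0 and 0 with GS/DA LRRK2 TG, against 3.65% and 7.36%. *Vps35* had *z* of 1.21 and -1.10, but with the GC trend removed its TE difference was 0.12 with GS LRRK2 TG and -0.05 with GS/DA LRRK2 TG, and as the mean of library ratios the latter was 0.01. All TE differences of the transgenic lines hold the RNA-Seq in which *Lrrk2* did not go with the label, so no direction is drawn from them either. Medians of cortical markers had one sign in RNA-Seq and footprints, 1.10 and 1.18 with GS/DA LRRK2 TG and -0.33 and -0.23 with GS LRRK2 TG. Choroid plexus markers had -0.45 and -0.94, then -1.13 and -1.38. With GS LRRK2 TG the sign was also shared by oligodendrocyte (0.11 and 0.19), microglia (0.05 and 0.07) and striatal projection neuron markers (-0.03 and -0.09). There the signs differed for astrocyte (-0.11 and 0.09) and the 3 listed dopamine neuron markers (-0.11 and 0.15). The cause was not tested. The transgenic tables both hold non-TG control mice, so their values are not independent of each other.

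*Atp13a2* had the lowest log2 TE of the members in every group, -1.87 and -1.37 in the non-TG control means of the 2 transgenic tables and -2.18 in WT, at the 3.8, 5.95 and 4.13 percentile of all transcripts. *Vps35* had the highest, 1.00, 1.13 and 0.53, at the 93.9, 92.9 and 99 percentile. *Synj1* and *Dnajc6* lay between the 74.8 and 90.5 percentile and *Pink1* and *Fbxo7* between the 22.3 and 50.7 percentile over the 6 groups. In the LRRK2 KO table, any footprinting library over any RNA-Seq library of WT gave -2.77 to -1.70 for *Atp13a2* and -0.19 to 1.18 for *Vps35*, ranges that do not meet. The ranges do meet in GS/DA LRRK2 TG, with -2.34 to 0.21 for *Atp13a2* and -0.15 to 2.86 for *Vps35*. In the non-TG control of the GS/DA LRRK2 TG table the ranges were -2.06 to 0.00 and 0.36 to 2.33, wider than in WT.

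**Figure D2:**
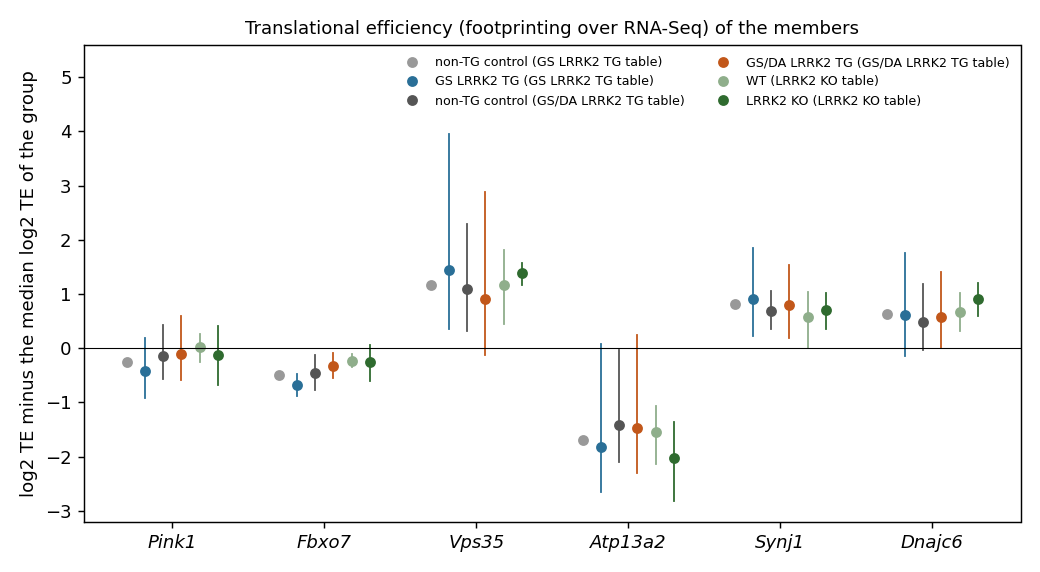
Log2 TE of the 6 members minus the median log2 TE of all transcripts in the same group, for the control and genotype means of the 3 tables (points). Lines span the ratios of any recovered footprinting library to any recovered RNA-Seq library of the group and are missing where the control libraries were not recovered; *Atp13a2* has the lowest and *Vps35* the highest point in every group.

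Per kb of CDS, the footprints of the members kept one order in all 6 groups: *Pink1*, *Vps35*, *Dnajc6*, *Synj1*, *Fbxo7* and *Atp13a2*, from high to low. In the non-TG control of the GS/DA LRRK2 TG table the authors' means per kb were 3732, 2198, 1366, 1018, 363 and 218 normalized reads in that order, and no 2 neighbours overlapped between libraries. In WT they were 964, 714, 581, 446, 103 and 60.2, and there the first 4 genes overlapped from neighbour to neighbour. By the authors' means, RNA-Seq per kb also put *Pink1* first and *Fbxo7* last in every group, with 1486 and 188 in WT, while the order of the other members changed between tables. *Atp13a2* was last in footprints but ahead of *Fbxo7* in mean RNA, with 273 per kb in WT. Single RNA-Seq libraries of the transgenic tables did not keep *Fbxo7* last. The lowest library held 219 for *Atp13a2* and 417 for *Fbxo7* in the non-TG control. It held 208 and 386 under the GS/DA LRRK2 TG label and 183 and 469 under the GS LRRK2 TG label. *Vps35* also fell below *Fbxo7* under these 2 labels, to 354 and 147.

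In the transgenic tables, base composition of the CDS went with the RNA-Seq differences between libraries of one group. The GC content was 41.1% for *Vps35*, 49.1% for *Synj1*, 51.5% for *Fbxo7*, 53.3% for *Dnajc6*, 61.9% for *Pink1* and 62.1% for *Atp13a2*, and the median over transcripts of the transgenic tables was 52.8%. *Vps35* thus stood at the 1.75 percentile and *Pink1* and *Atp13a2* at the 94.4 and 94.8 percentile. In the non-TG control of the GS/DA LRRK2 TG table, the log2 ratio of the shallower to the deeper RNA-Seq library was -1.63 for *Vps35* and 2.03 for *Atp13a2*, with Spearman's rho of 0.78 against GC content across 8267 transcripts of the 2 libraries, which are not independent replicates. In the libraries labelled GS LRRK2 TG the ratios were -3.09 and 2.64, and in those labelled GS/DA LRRK2 TG, where the order of the libraries is turned, 2.55 and -2.38. *Pink1*, with almost the GC content of *Atp13a2*, had smaller ratios of 0.95, 0.87 and -1.14 in the same order of groups. *Dnajc6*, near the median in GC content, had -0.97, -1.55 and 1.24. In the LRRK2 KO table the RNA-Seq ratios of the members stayed between -0.21 and 0.55, and Spearman's rho with GC content was 0.04 in WT and 0.27 in LRRK2 KO. With the GC trend removed, the TE difference of *Pink1* went from -0.14 to -0.02 with GS LRRK2 TG and from -0.12 to 0.02 with LRRK2 KO. That of *Atp13a2* went from -0.10 to 0.02 with GS LRRK2 TG and from -0.47 to -0.33 with LRRK2 KO. With GS/DA LRRK2 TG it left *Pink1* at -0.03 and *Atp13a2* at -0.14. Footprinting libraries of one group also differed with GC content, with rho of -0.54 in WT, -0.23 in LRRK2 KO, 0.43 in the non-TG control, 0.47 in GS/DA LRRK2 TG and -0.31 in GS LRRK2 TG.

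**Figure D3:**
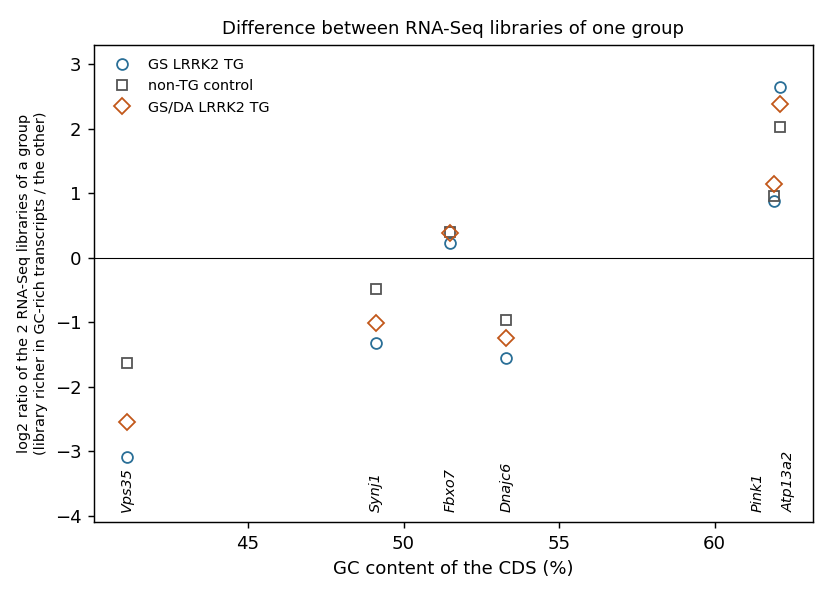
Log2 ratio of the 2 RNA-Seq libraries of a group, taken as the library richer in GC-rich transcripts over the other, against the GC content of the CDS (%) for the 6 members in the 3 transgenic-table groups with recovered libraries. *Vps35*, with the lowest GC content, lies lowest in each group and *Atp13a2*, with the highest, lies highest.

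The starts of the coding sequences of *Vps35*, *Pink1* and *Atp13a2* are given below, though the first 60 bases did not follow the whole CDS in every member and held 68.3% GC in *Fbxo7* and 66.7% in *Synj1*. They are the first 60 bases of the longest annotated CDS in the annotation of the NCBIM37 assembly (mm9), read 5′ to 3′ on the coding strand with the start codon in capitals, and hold 48.3% GC in *Vps35* (chr8:87784296-87823412, minus strand), 75% in *Pink1* (chr4:137869324-137882222, minus strand) and 66.7% in *Atp13a2* (chr4:140542788-140563245, plus strand).
Vps35: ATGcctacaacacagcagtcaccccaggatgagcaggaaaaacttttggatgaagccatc
Pink1: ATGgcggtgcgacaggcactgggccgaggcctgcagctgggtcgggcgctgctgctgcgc
Atp13a2: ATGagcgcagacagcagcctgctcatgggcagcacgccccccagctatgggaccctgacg

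The members spread over several chromosomes, though 3 share one, and the deposited folding energy of the 5′ leader ranged from -107.5 to -12.9 kcal/mol. *Pink1*, *Atp13a2* and *Dnajc6* (chr4:101169253-101315404, plus strand) lie on chromosome 4, with 2.66 Mb between *Pink1* and *Atp13a2* and 36.6 Mb between *Dnajc6* and *Pink1*. *Fbxo7* lies at chr10:85484717-85514618, plus strand and *Synj1* at chr16:90936337-91011553, minus strand. The energies were -12.9 kcal/mol for *Vps35*, -32.6 for *Pink1*, -70.4 for *Synj1*, -94.3 for *Fbxo7*, -94.96 for *Dnajc6* and -107.5 for *Atp13a2*. *Vps35*, the member with the highest TE, had the least stable predicted leader, and *Atp13a2*, with the lowest TE, the most stable of the members. The energy of *Atp13a2* stood at the 43.8 percentile, near the transcript median of -91.15 kcal/mol. *Pink1*, with the next least stable leader at the 80.3 percentile, lay between the 31.1 and 50.7 percentile in TE. *Dnajc6* and *Fbxo7*, close to each other in energy, also stood apart in TE. GC content of the CDS was likewise lowest in *Vps35* and highest in *Atp13a2*. A link of leader energy with TE was not tested.

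In 6 lists of partner genes limma called 0 genes in either direction in footprinting, RNA-Seq or TE of GS/DA LRRK2 TG and LRRK2 KO, with and without the library block. These fits called 0% of all transcripts without the block and at most 0.31% with it, so the 0 says little about the lists. The TE extremes given for the transgenic lines hold the RNA-Seq in which *Lrrk2* did not go with the label, so they are listed as values without a direction. Of 36 genes of mitophagy around PINK1 and parkin, 33 were listed in the transgenic tables and 34 in the LRRK2 KO table. Their median TE difference was 0.01 with GS LRRK2 TG, -0.02 with GS/DA LRRK2 TG and 0.18 with LRRK2 KO. The medians of all transcripts were 0.02, -0.05 and 0.02. With LRRK2 KO the list had a median change of 0.06 in footprints and -0.12 in RNA-Seq, so its TE median came more from RNA-Seq. The highest and lowest TE differences of the list were *Mfn1* (0.66) and *Tomm7* (-0.26) with GS LRRK2 TG, *Ube2l3* (0.16) and *Tax1bp1* (-0.63) with GS/DA LRRK2 TG, and *Bnip3l* (0.49) and *Htra2* (-0.28) with LRRK2 KO. The ubiquitin ligase list around *Fbxo7*, 19 of 20 genes, had medians of 0.07, -0.06 and 0.09 in the same order of comparisons. Its highest and lowest TE differences were *Fbxo11* (0.35) and *Ube2g2* (-0.26) with GS LRRK2 TG and *Rbx1* (0.08) and *Fbxo11* (-0.43) with GS/DA LRRK2 TG, and its lowest with LRRK2 KO was *Fbxw2* (-0.44).

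The retromer and WASH list around *Vps35*, 20 of 25 genes, had median TE differences of 0.00, 0.03 and 0.08 in the same order of comparisons. Its extremes were *Snx5* (0.37) and *Slc11a2* (-0.34), then *Snx12* (0.11) and *Vps26a* (-0.51), then *Igf2r* (0.42) and *Commd1* (-0.27). For ATPases and transporters around *Atp13a2*, 9 of 14 genes in the transgenic and 10 in the LRRK2 KO table, the medians were -0.01, -0.05 and -0.03. The extremes were *Atp13a3* (0.38) and *Slc39a14* (-0.33), *Hdac6* (0.04) and *Atp13a3* (-0.38), and *Slc39a14* (0.40) and *Slc30a4* (-0.36). The endocytosis list around *Synj1* and *Dnajc6*, 25 of 30 genes, had medians of -0.04, 0.00 and 0.07. Its extremes were *Inpp5f* (0.68) and *Gak* (-0.20), *Sh3gl2* (0.09) and *Itsn2* (-0.54), and *Cltc* (0.74) and *Itsn2* (-0.23). With LRRK2 KO, *Cltc* footprints changed by 0.01 and its RNA-Seq by -0.73. Those of *Itsn2* changed by 0.00 and 0.23, so these differences lay in RNA-Seq and hardly in footprints. Antioxidant genes related to DJ-1, the product of *Park7*, were listed for 18 of 22 genes in the transgenic and 19 in the LRRK2 KO table. Their medians were 0.02, 0.01 and 0.10. They ran between *Glo1* (0.25) and *Prdx5* (-0.39), *Sod1* (0.15) and *Nfe2l2* (-0.15), and *Nqo1* (0.66) and *Daxx* (-0.42). In the LRRK2 KO table the group means of *Nqo1* were only 27.8 to 41.2 normalized reads. Those of *Slc39a14* were 67.2 to 105 and of *Slc30a4* 45.8 to 117, so these extremes rest on low levels. Of the LRRK2 KO extremes named for the lists, all but *Slc30a4* changed more in RNA-Seq than in footprints.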

How the data were processed

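Per the submitters' processing notes and the paper's methods, the authors aligned reads to mm9 with TopHat2 2.0.11 and Bowtie2 2.2.2, counted CDS reads per gene with its isoforms joined, discarded transcripts with few reads and normalized with DESeq 1.20; base calls came from CASAVA 1.8. The deposited group means are a signal without SD or n. The authors' log2 TE and TE difference columns and their *z* score column were deposited too and not used; TE, its difference and *z* were recomputed from the means. The authors' folding energy of the 5′ leader was taken as deposited.

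Reads of single libraries were recovered where only 1 pair of whole numbers, each divided by a size factor, gave a mean within its rounding. The recovery and the fits were tested on simulated data, for footprinting and TE. There, fits without the library block called most of the changed transcripts in GS/DA LRRK2 TG footprinting and none in TE or in LRRK2 KO footprinting. Fits with it called most in each and a few unchanged ones. The simulated genotype libraries took the levels of their matched control library with little noise added. The pairing was therefore built in, which favours the fits with the block. In the data themselves, GS/DA LRRK2 TG footprinting without the block had 0 calls, *Lrrk2* included. Both TE fits had 0 calls with the block, so the simulated rates need not hold for these data. Log2 of normalized reads plus 10 went into limma 3.58.1 (R 4.3.3), per assay on the libraries of a comparison and, for TE, with genotype, assay and their interaction; Benjamini-Hochberg adjustment ran over the table, with a threshold of 0.05, and intervals are 95%. The columns carry no replicate numbers. The paper splits a lysate for footprinting and RNA-Seq and lists mapped reads of both by numbered sample. The recovered libraries were not matched to these numbers, so footprinting and RNA-Seq libraries of one pool were not joined. The paper calls the 2 results of a group independent, but neither it nor the labels say that samples came from separate pools, so p-values measure only the spread between these samples. Length and base composition of the CDS were computed on NCBIM37 annotation and covered 97.1%, 97.1% and 97% of transcripts in the order of the tables.

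The genes named are the listed members; the highest and lowest TE difference of each partner list; called cell type markers; and *Lrrk2*. A few results under this rule are not reported here. Markers of oligodendrocytes, astrocytes, microglia and choroid plexus were also listed. Ventral midbrain samples have no column and were left out. The recovered means fit 2 libraries also where the labels give 3 samples. The members and lists were chosen with earlier results of these data known.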

Additional observations from a re-analysis of the deposited data

How the results depend on the processing

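The count of members past the limma threshold was 0 in each of the 6 fits under a pseudocount of 1, a minimum of 500 in every mean, centred libraries, removal of the GC trend, 1 transcript per symbol, either matching of the library block and each library left out (0 to 0). Without the block, the LRRK2 KO and TE fits called 0 of all transcripts in each of these settings, and a library left out leaves an arm of 1, so these counts do not show stability. No paired analysis was possible from the columns alone, because the columns carry no replicate numbers. The sample titles do number the replicates, and the paper lists mapped reads by numbered sample. The recovered libraries were not matched to these numbers by read depth, so a pairing of that kind was not tested. The library block matches libraries by their shared difference instead. Members past the *z* cutoffs on either side numbered 2 with GS LRRK2 TG (*Vps35*, *Fbxo7*) at cutoffs of 1, beside 1337 transcripts above and 1106 below of 8576. With GS/DA LRRK2 TG they numbered 1 (*Vps35*) at cutoffs of 1, beside 985 and 1140 transcripts, and 1 (*Vps35*) with median and scaled MAD, beside 509 and 1050. With LRRK2 KO the count was 0 at cutoffs of 2, beside 277 and 208 of 9561 transcripts, and 0 with every mean at least 500, beside 113 and 114 of 1684, where 4 members were tested and *Atp13a2* was not. The TE difference of *Atp13a2* with LRRK2 KO ranged from -0.49 to -0.33 under the other settings and from -1.04 to 0.02 with a library left out, the last without the deeper WT footprinting library. Of 54 member changes, 41 had the same sign under all other settings, and of 36 with recovered libraries 4 had it with every library left out. Reads of the LRRK2 KO table, as few as 86 for a member in a library, and the 2 libraries a group limit what these tests can show.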

Other observations

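Other cell type markers that the dissected tissue could hold were read beside the members. The median log2 change in footprints, in the order of the tables (GS LRRK2 TG first, LRRK2 KO last), was 0.19, 0.06 and -0.04 for 7 oligodendrocyte markers, 0.09, 0.12 and -0.01 for 6 astrocyte markers, 0.07, 0.12 and 0.13 for 5, 5 and 6 listed microglia markers, 0.15, 0.18 and 0.03 for 3 listed dopamine neuron markers and -1.38, -0.94 and -0.03 for *Ttr* and *Clic6*, the 2 listed choroid plexus markers. *Ttr* held most of the summed choroid plexus footprints, which were 17613 and 1489 normalized reads in the non-TG control and 1440.0 and 5525 in GS/DA LRRK2 TG, so libraries of one group differed more than the groups. With the library block limma called *Ttr* in LRRK2 KO RNA-Seq (log2 change -1.22, adjusted p 4.75e-05) and *Nr4a2* in GS/DA LRRK2 TG footprinting (0.98, adjusted p 0.0063); neither was called with the opposite matching or without a block.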
